A study of Mus musculus with 48 samples.

Results

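The 8 transcripts described here belong to lymphocytes and to leukocytes in general, and were followed in bulk mouse liver RNA. They were chosen by name, as the rows of the expression table whose symbol is Ptprc, Cd52, Cd53, Coro1a, Laptm5, Ccl5, Ighm or Ighd. All 8 were found among the 14251 genes counted, and all 8 were among the 12688 genes that passed the filter on low counts.

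The 48 livers came from male C57BL6J mice whose drinking water held corticosterone at 100 ug/ml, the principal rodent glucocorticoid, or vehicle (1% ethanol) for 2 weeks. Within each treatment a subset ate food containing 571 mg/kg of atglistatin, which inhibits adipose triglyceride lipase (ATGL), the enzyme that starts the breakdown of stored fat. The groups were corticosterone with the atglistatin diet (14 mice), corticosterone with the control diet (14 mice), vehicle with the atglistatin diet (10 mice) and vehicle with the control diet (10 mice). A diabetic label was carried by 1 mouse of the first group and 9 of the second. Libraries were made with QuantSeq, which reads the 3′ ends of polyadenylated transcripts, and each library is named here by its group and the number in its title.

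Total counts ran from 7449109 to 21175603 per library. Libraries of the same group always differed by more than sampling noise (chi-square per degree of freedom at least 6.215). A list of 10 hepatocyte genes made up between 81821 and 152509 CPM (read counts divided by library size after TMM scaling) in every library, as liver should show. More than 20 CPM of the pancreatic enzyme transcript Cpa1 was found in 6 libraries, namely 2 vehicle atglistatin-diet, 3 vehicle control-diet and 1 corticosterone control-diet library. For the members, corticosterone atglistatin-diet replicate 41 stood apart: it was the highest of its group for 5 of the 8, and its summed member level was 37.5 CPM against a group median of 12.4 CPM. Results that rest on it are given with and without it.

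Ptprc encodes CD45, the tyrosine phosphatase of the leukocyte surface. CD52 is a small glycoprotein anchored in the membrane of lymphocytes and monocytes, and CD53 is a tetraspanin of leukocyte membranes. Coronin 1A binds actin in blood cells and is needed for T cell survival and movement. LAPTM5 is a lysosomal membrane protein of blood cells that limits the amount of antigen receptor on T and B cells. CCL5 is a chemokine made by activated T cells and NK cells, and it attracts leukocytes. Ighm and Ighd encode the constant parts of the IgM and IgD heavy chains. Mature naive B cells make both from the same primary transcript by alternative splicing, while cells that secrete IgM largely stop making IgD. The liver holds resident macrophages (Kupffer cells), NK cells, T cells and B cells between its hepatocytes, and glucocorticoids are best known clinically for suppressing such cells. In bulk RNA, fewer cells of a type and less RNA per cell cannot be told apart.

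RefSeq promoter windows on GRCm38.p6, from 250 bases before to 50 bases after the transcription start, matched 4 of the 8 members. The first window of each is shown, as these members of different function were lower together under corticosterone. The hormone acts through a receptor that binds DNA. Capitals mark GGAAGT, a core bound by ETS family factors that include the leukocyte factor PU.1, and TGTTCT, an arm of the glucocorticoid receptor site, on either strand (read as ACTTCC and AGAACA on the other).
Ptprc chr1:138175256-138175555 (- strand): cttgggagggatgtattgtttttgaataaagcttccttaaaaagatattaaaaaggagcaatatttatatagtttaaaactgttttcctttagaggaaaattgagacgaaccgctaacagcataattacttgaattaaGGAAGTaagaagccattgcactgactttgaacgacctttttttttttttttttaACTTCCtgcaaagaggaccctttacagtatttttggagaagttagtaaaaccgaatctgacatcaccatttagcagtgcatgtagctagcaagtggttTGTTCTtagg
Cd53 chr3:106790100-106790399 (- strand): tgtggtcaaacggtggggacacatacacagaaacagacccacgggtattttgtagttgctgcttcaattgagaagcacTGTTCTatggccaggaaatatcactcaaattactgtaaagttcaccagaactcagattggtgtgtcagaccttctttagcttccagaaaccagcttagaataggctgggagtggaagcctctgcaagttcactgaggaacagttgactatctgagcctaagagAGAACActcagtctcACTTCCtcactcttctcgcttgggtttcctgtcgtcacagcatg
Laptm5 chr4:130913066-130913365 (+ strand): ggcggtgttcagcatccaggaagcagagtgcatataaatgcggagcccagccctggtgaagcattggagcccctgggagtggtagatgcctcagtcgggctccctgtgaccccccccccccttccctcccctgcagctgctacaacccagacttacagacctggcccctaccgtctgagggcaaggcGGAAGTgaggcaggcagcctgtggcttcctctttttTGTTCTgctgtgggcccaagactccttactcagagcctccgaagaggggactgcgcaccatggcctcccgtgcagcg
Coro1a chr7:126704767-126705066 (- strand): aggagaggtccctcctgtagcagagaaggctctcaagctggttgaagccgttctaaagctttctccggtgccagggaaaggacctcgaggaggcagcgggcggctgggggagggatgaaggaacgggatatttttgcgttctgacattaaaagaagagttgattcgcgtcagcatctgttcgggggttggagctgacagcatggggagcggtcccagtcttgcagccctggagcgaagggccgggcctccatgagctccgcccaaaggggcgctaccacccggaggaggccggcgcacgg
GGAAGT occurred 2 times in the Ptprc window, 1 time each in those of Cd53 and Laptm5, and 0 times in that of Coro1a. TGTTCT occurred 1 time for Ptprc, 2 times for Cd53, 1 time for Laptm5 and 0 times for Coro1a. The first motif was held by 23.8% and the second by 19% of the 32851 mouse windows of this length, so each is common. The full palindromic glucocorticoid receptor site, searched as an exact match, was in 0 of the 4 windows shown and in 0.00913% of all. The interferon-stimulated response core was in 0 of the 4 and in 3.44% of all. Ptprc and Coro1a each have a second window, not shown, which held neither. In that window GGAAGT and TGTTCT occurred 1 time each for Ptprc and 0 times for Coro1a. The motifs do not overlap one another, and a match describes letters only.

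All 8 transcripts were lower in corticosterone livers than in vehicle livers, on both diets, and all 8 by at least 2-fold. On the control diet, 8 of 8 were called lower at an adjusted p of at most 0.05 (edgeR's quasi-likelihood test, adjusted over all genes), where 21.7% of all genes tested were called lower and 5.98% were called lower by at least 2-fold. With atglistatin in the food, again 8 of 8 were called lower, against 17.7% of all genes and 4.65% by at least 2-fold. The median log2 fold change of the members was -2.11 on the control diet and -1.91 on the atglistatin diet, beside medians over all genes of 0.01 and 0.02. In 5 of 8 members no corticosterone library reached any vehicle library on the control diet (3.43% of all genes), and this held for 4 of 8 on the atglistatin diet (1.46% of all genes). The members were chosen with these contrasts known, so these counts describe them. Coro1a, Ccl5 and Ighd pass the filter on low counts in the 20 vehicle libraries but not in the 28 corticosterone libraries alone, so these 3 could hardly have been called other than lower, while the other 5 pass in both.

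**Figure D1:**
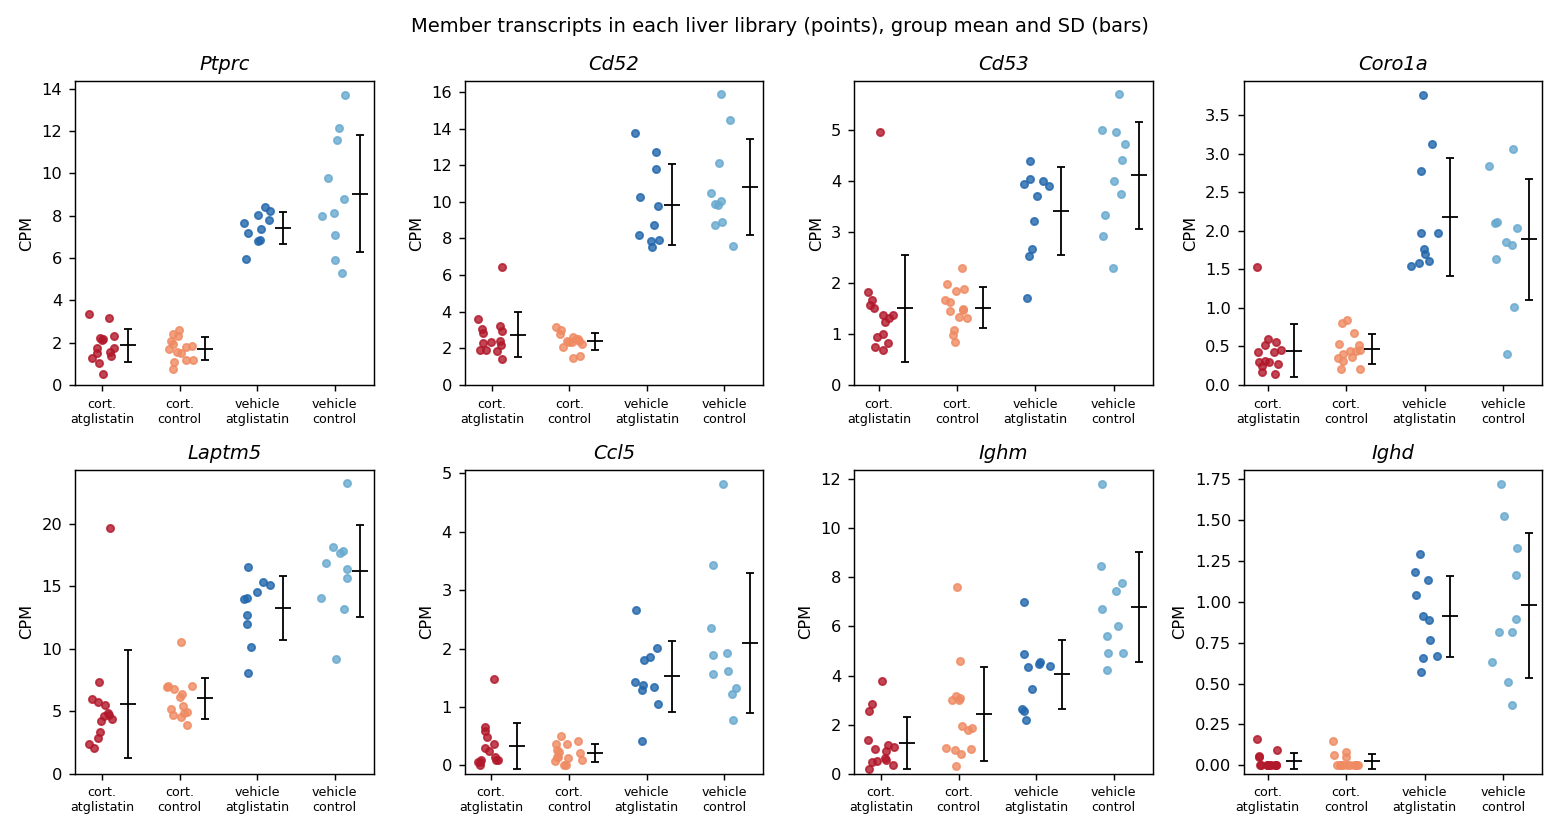
CPM of each of the 8 transcripts (y axis, one panel each) in the 48 libraries (points), by group (x axis), with the group mean and SD as a bar; cort. is corticosterone. The 2 corticosterone groups lie low in every panel, with median Ptprc of 1.75 CPM in both against 7.53 and 8.46 CPM in the vehicle groups, and the single high point of the corticosterone atglistatin group for Cd52, Cd53, Coro1a, Laptm5 and Ccl5 is replicate 41.

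Ptprc (ENSMUSG00000026395, chromosome 1, 138062861 to 138175708, minus strand, GRCm38) had 0.738, 1.75 and 2.62 CPM as the lowest, median and highest of the corticosterone control-diet libraries, against 5.31, 8.46 and 13.7 CPM with vehicle on that diet. With atglistatin these were 0.50, 1.75 and 3.36 CPM with corticosterone, against 5.96, 7.53 and 8.42 CPM with vehicle. The groups did not overlap on either diet. Ptprc was 5.24-fold lower on the control diet (log2 fold change -2.39 ± 0.18 SE, adjusted p = 1.242e-15) and 3.95-fold lower on the atglistatin diet (-1.98 ± 0.17, adjusted p = 5.876e-13). An uncharacterised gene, A130071D04Rik, overlaps Ptprc on the same strand and was also lower on both diets (-3.11 and -2.84).

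Cd52 (ENSMUSG00000000682, chromosome 4, 134082448 to 134095082, minus strand) had 1.46, 2.41 and 3.15 CPM with corticosterone on the control diet, against 7.61, 9.95 and 15.9 CPM with vehicle. The atglistatin-diet livers had 1.42, 2.38 and 6.43 CPM with corticosterone, against 7.51, 9.25 and 13.7 CPM with vehicle. Here too the groups stayed apart on both diets, and the highest corticosterone value was that of replicate 41. The fold changes were -2.18 ± 0.16 (adjusted p = 5.581e-16) and -1.84 ± 0.15 on the log2 scale (adjusted p = 1.351e-13). Cd52 shares sequence with Crybg2 on the other strand, and with no strand setting given, reads of the 2 cannot be told apart there. Crybg2 was higher with corticosterone (log2 fold change 1.14 and 0.76 on the 2 diets).

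Cd53 (ENSMUSG00000040747, chromosome 3, 106759921 to 106790149, minus strand) was lower by a smaller amount. Corticosterone control-diet livers had 0.844, 1.48 and 2.30 CPM, against 2.31, 4.22 and 5.71 CPM with vehicle, so that the ranges met without overlapping. With atglistatin the values were 0.679, 1.34 and 4.96 CPM under corticosterone, against 1.70, 3.81 and 4.4 CPM under vehicle, where 2 corticosterone libraries reached the vehicle range. The log2 fold changes were -1.41 ± 0.21 (adjusted p = 2.28e-07) and -1.18 ± 0.21 (adjusted p = 1.059e-05, lower than the vehicle mean in 13 of 14 libraries). Leaving out replicate 41 brought the second to -1.46.

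The 2 members that work inside the cell were lower as well. Coro1a (ENSMUSG00000030707, chromosome 7, 126699773 to 126707787, minus strand) had 0.202, 0.446 and 0.841 CPM with corticosterone on the control diet, against 0.398, 1.95 and 3.07 CPM with vehicle. With 8 corticosterone libraries at or above it, the groups overlapped at the lowest vehicle library, replicate 16, the shallowest of the study, which held 3 counts of Coro1a. The next vehicle library had 1.02 CPM, above all corticosterone libraries. Under atglistatin the values were 0.138, 0.369 and 1.53 CPM with corticosterone, against 1.55, 1.87 and 3.76 CPM with vehicle, without overlap. Its log2 fold changes were -2.03 ± 0.27 (adjusted p = 1.379e-08) and -2.26 ± 0.26 (adjusted p = 7.314e-10). Bola2 lies across Coro1a on the other strand; it was much more abundant (35.1 CPM over all libraries) and was not lower, at 0.18 and 0.36 on the log2 scale.

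Laptm5 (ENSMUSG00000028581, chromosome 4, 130913125 to 130936141, plus strand) had 3.90, 5.82 and 10.6 CPM with corticosterone on the control diet, against 9.23, 16.6 and 23.2 CPM with vehicle. Atglistatin-fed mice had 2.09, 4.63 and 19.7 CPM with corticosterone, against 8.05, 14 and 16.6 CPM with vehicle. A single corticosterone library overlapped the vehicle range on each diet, replicate 34 on the control diet and replicate 41 on the atglistatin diet, which exceeded every vehicle library there. The log2 fold changes were -1.43 ± 0.21 (adjusted p = 2.267e-07) and -1.25 ± 0.21 (adjusted p = 5.058e-06). Without replicate 41 the value on the atglistatin diet was -1.58.

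Relative to Ptprc counts, median Cd53 and Laptm5 counts were higher in the corticosterone groups on both diets, and those of Coro1a and Ighm differed in direction between the diets. The median ratio of Cd53 to Ptprc counts was 0.716 with corticosterone and 0.488 with vehicle on the atglistatin diet, and 0.977 against 0.471 on the control diet. For Laptm5 it was 2.34 against 1.83 on the atglistatin diet and 3.48 against 2.01 on the control diet. For Cd52 the medians lay closer, at 1.45 against 1.25 and 1.38 against 1.19. For Coro1a and Ighm the medians were lower with corticosterone on the atglistatin diet (0.221 against 0.287 for Coro1a, 0.483 against 0.566 for Ighm) and higher on the control diet (0.249 against 0.205 for Coro1a, 1.17 against 0.749 for Ighm). Ccl5 and Ighd, with libraries at 0, were left out of these ratios. These ratios carry no test, and they compare groups within a pair of transcripts, not the levels of the transcripts.

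Ccl5 (ENSMUSG00000035042, chromosome 11, 83525778 to 83530518, minus strand) had 0, 0.180 and 0.509 CPM with corticosterone on the control diet, against 0.769, 1.75 and 4.82 CPM with vehicle. Livers of atglistatin-fed mice had 0, 0.189 and 1.47 CPM with corticosterone, against 0.422, 1.40 and 2.67 CPM with vehicle. The groups were separate on the control diet, while on the atglistatin diet 4 corticosterone libraries reached the lowest vehicle library. Few reads carry these values, with 43 counts in 14 corticosterone libraries against 265 in 10 vehicle libraries on the control diet, and 77 against 236 on the atglistatin diet. The pooled level was 9.24-fold lower (95% Poisson interval 6.67 to 13.1) on the control diet and 4.36-fold lower (3.36 to 5.72) on the atglistatin diet, intervals that cover counting error only. The fitted log2 fold changes were -3.20 ± 0.40 (adjusted p = 5.544e-09) and -2.13 ± 0.38 (adjusted p = 1.122e-05, and -2.55 without replicate 41).

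Among 14 measured genes of other chemokines and lymphocyte-directed receptors, 9 were called lower and 0 higher with corticosterone on the control diet, with a median log2 fold change of -0.89. On the atglistatin diet 8 were called lower and 1 higher (median -0.76). Of the 14, 2 pass the filter in the vehicle libraries but not in the corticosterone libraries alone, and 10 pass in the corticosterone libraries. Cxcl9, an interferon-induced attractant of T cells, was lower by -4.05 ± 0.31 on the control diet and -3.11 ± 0.30 on the atglistatin diet. Cxcl16, the ligand of CXCR6, changed by -1.11 ± 0.09 and -0.91 ± 0.09. The gene called higher was Cxcl13, an attractant of B cells (0.66 ± 0.27 on the atglistatin diet), named because it was the exception.

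The 2 immunoglobulin heavy chains were both lower with corticosterone, Ighd by the largest fold of the 8 members. Ighm (ENSMUSG00000076617, chromosome 12, 113418558 to 113422730, minus strand) had 0.309, 1.89 and 7.62 CPM with corticosterone on the control diet, against 4.23, 6.37 and 11.8 CPM with vehicle. On the atglistatin diet it had 0.184, 0.982 and 3.76 CPM with corticosterone, against 2.20, 4.38 and 7.01 CPM with vehicle. The groups overlapped on both diets, by 2 corticosterone libraries on the control diet and 3 on the atglistatin diet. The log2 fold changes were -1.44 ± 0.32 (adjusted p = 0.0002203, lower than the vehicle mean in 13 of 14 libraries) and -1.72 ± 0.34 (adjusted p = 7.742e-05, 14 of 14).

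Ighd (ENSMUSG00000104213, chromosome 12, 113406604 to 113416324, minus strand), its neighbour on the chromosome, was close to the limit of detection with corticosterone. On the control diet it had 0, 0 and 0.148 CPM with corticosterone, against 0.371, 0.857 and 1.72 CPM with vehicle. On the atglistatin diet it had 0, 0 and 0.161 CPM with corticosterone, against 0.571, 0.903 and 1.29 CPM with vehicle. In each corticosterone group 10 of 14 libraries had no Ighd count, and the group totals were 5 counts (control diet) and 6 counts (atglistatin diet), while every vehicle library had some, with totals of 124 and 140. The groups were fully separate on both diets. Pooled levels were 37.2-fold lower (95% Poisson interval 15.5 to 116) on the control diet and 33.2-fold lower (14.9 to 92.1) on the atglistatin diet. In the fit the log2 fold changes were -4.83 ± 0.41 (adjusted p = 8.05e-14) and -4.69 ± 0.39 (adjusted p = 1.126e-13), the 7th and 16th lowest of 12688 genes. As Ighd passes the filter on low counts in the vehicle libraries but not in the corticosterone libraries alone, these p and ranks only describe it.

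Ighd thus made up a smaller share of the summed Ighd and Ighm counts under corticosterone. The share was 2.23% (exact 95% binomial interval 0.823 to 4.79) with corticosterone and 18.6% (15.9 to 21.6) with vehicle on the atglistatin diet. On the control diet it was 0.973% (0.317 to 2.26) with corticosterone and 12.5% (10.5 to 14.7) with vehicle. The intervals cover counting error over pooled libraries, and the share was not tested between mice.

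**Figure D2:**
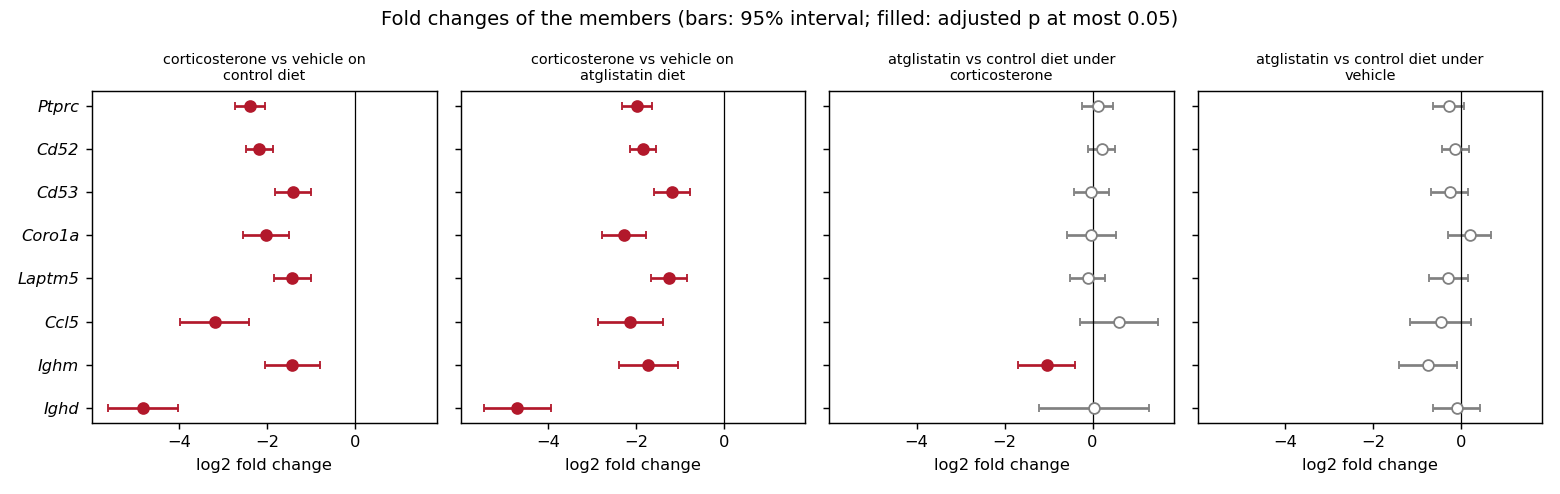
Log2 fold changes (x axis) of the 8 members (rows) in 4 comparisons (panels), with bars for the 95% interval; filled points have an adjusted p of at most 0.05. All 8 lie left of 0 in both corticosterone panels, Ighd farthest at -4.83 and -4.69, while in the atglistatin panels Ighm under corticosterone (-1.04) is the single filled point.

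Between the diets, few members passed the test. Under corticosterone, 1 of 8 members was called lower and 0 higher with atglistatin, where 6.47% of all genes were called lower and 5.19% higher. That member was Ighm, with 0.184, 0.982 and 3.76 CPM on the atglistatin diet and 0.309, 1.89 and 7.62 CPM on the control diet, which is -1.04 ± 0.33 on the log2 scale (95% interval -1.69 to -0.39, adjusted p = 0.03107, lower than the control-diet mean in 11 of 14 libraries). The ranges overlapped widely. The call was lost when any of 5 libraries was left out: corticosterone atglistatin-diet replicates 14 (adjusted p = 0.05117), 25 (0.05312) and 42 (0.05037), and corticosterone control-diet replicates 33 (-0.76, adjusted p = 0.1216) and 37 (adjusted p = 0.05668). It was also lost when the 2 groups were fitted alone (-1.02, adjusted p = 0.08486) or without diabetic mice (-1.15, adjusted p = 0.119). The fit without diabetic mice kept 5 corticosterone control-diet livers, and its estimate was not smaller.

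The other 7 members gave adjusted p between 0.4378 and 0.9857 for this comparison. Their 95% intervals bound the difference on the log2 scale: -0.23 to 0.48 for Ptprc, -0.10 to 0.52 for Cd52, -0.43 to 0.38 for Cd53, -0.59 to 0.52 for Coro1a and -0.51 to 0.28 for Laptm5. Those of Ccl5 (-0.27 to 1.49) and Ighd (-1.21 to 1.27) are wide, as their counts are few. Without replicate 41, Laptm5 was called lower with atglistatin, at -0.43 (adjusted p = 0.04763).

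Under vehicle, 0 of 8 members were called with atglistatin in either direction, where 3.13% of all genes were. Ptprc lay below the control-diet mean in 10 of 10 atglistatin-diet livers, yet the log2 difference of -0.29 ± 0.18 did not pass (adjusted p = 0.4402). Ighm had 2.20, 4.38 and 7.01 CPM on the atglistatin diet and 4.23, 6.37 and 11.8 CPM on the control diet, a log2 difference of -0.76 ± 0.34 (adjusted p = 0.2424). With the vehicle groups fitted alone its adjusted p was 0.03364. For the other members the log2 differences ranged between -0.46 (Ccl5) and 0.20 (Coro1a).

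Whether the corticosterone effect itself differed between the diets was tested as an interaction, and 0 of 8 members were called, where 1.43% of all genes were. The largest estimates were 1.07 ± 0.57 for Ccl5 (adjusted p = 0.4745) and 0.41 ± 0.25 for Ptprc (adjusted p = 0.566), both toward a smaller reduction on the atglistatin diet. Their 95% intervals were -0.05 to 2.20 and -0.08 to 0.90. Without replicate 41 the estimates were 0.65 for Ccl5 (adjusted p = 0.7008) and 0.33 for Ptprc (adjusted p = 0.6553). At an unadjusted p under 0.05, 1497 genes passed this test over the whole table.

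Within the corticosterone control-diet group, 9 livers carried the diabetic label and 5 the nondiabetic label. In these 14 libraries 5 members could be tested, since Coro1a, Ccl5 and Ighd fell under the filter there. None of the 5 was called, and neither was any of the 12003 genes tested with edgeR (0%). An unadjusted edgeR p under 0.05 was reached by 448 genes, only 3.73% of those tested, and DESeq2 also called 0. Ptprc averaged 1.57 ± 0.577 CPM in diabetic livers and 1.97 ± 0.427 CPM in nondiabetic livers (SD, n = 9 and n = 5), a log2 difference of -0.33 ± 0.25 (edgeR adjusted p = 0.9925). For Cd53 the means were 1.38 ± 0.369 CPM with the diabetic label and 1.77 ± 0.358 CPM with the nondiabetic label, and for Laptm5 6.05 ± 1.99 CPM and 6.0 ± 1.05 CPM. Ighm averaged 2.25 ± 1.26 CPM in diabetic livers and 2.78 ± 2.91 CPM in nondiabetic livers. The nondiabetic liver highest in Ptprc (2.62 CPM) and Cd53 (2.30 CPM), replicate 36, had a labelled glucose of 242. Diabetic replicate 37 had 254, the lowest with that label, so these 2 livers differed little in glucose. The remaining nondiabetic livers had 131 to 145, while the diabetic livers ran up to 407.

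Apart from treatment, the members varied together in part. After the 4 group means were taken out of log2(CPM + 0.5), the 15 pairs among Ptprc, Cd52, Cd53, Coro1a, Laptm5 and Ccl5 had Pearson r between 0.33 and 0.59 over 48 libraries and Spearman rho between 0.23 and 0.54. Of these, 14 passed an adjusted p of 0.05 for r and 11 for rho (2-sided permutation test within groups, 100000 resamples, adjusted over 28 pairs). Ptprc with Cd53 gave r = 0.59 (permutation p = 2e-05, adjusted p = 0.00056) and rho = 0.52 (permutation p = 0.00023, adjusted p = 0.00322), and r was 0.56 without the 2 libraries farthest from the median of Ptprc. Without replicate 41 the 15 values of r ran from 0.24 to 0.56, each lower than with it. Cd53 with Laptm5, for example, went from 0.58 to 0.32. The permutation tests were not repeated without replicate 41, and no passing share over pairs of other genes was computed. Points of a pair share a library and its depth.

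None of the 13 pairs with Ighm or Ighd passed. Their r lay between -0.13 and 0.13, and 0 of 13 passed for r or for rho (lowest permutation adjusted p 0.4138 and 0.2291). Without replicate 41 the 13 values of r ran from -0.12 to 0.26. In the 20 vehicle libraries r with Ighm ran from -0.18 (Laptm5) to 0.43 (Ccl5). In the 28 corticosterone libraries it ran from -0.11 (Cd53) to 0.21 (Ighd). These values within a treatment were not tested. Ighm and Ighd, neighbours in the genome, gave r = 0.13 (permutation p = 0.2364, adjusted p = 0.4138) and rho = 0.16 (permutation p = 0.2151, adjusted p = 0.3543), with r = 0.12 without the 2 libraries farthest from the median of Ighm. As 10 of 14 libraries in each corticosterone group had no Ighd count, a correlation with Ighd could hardly be seen there.

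For each member the 3 genes most like it were found by the same r over 48 libraries, among 11396 genes with a mean of at least 1 CPM. The r chose these genes, so it is given with no test. Laptm5 was closest to genes of macrophages: Cd5l (r = 0.89, rho = 0.83), C1qc, a complement subunit (r = 0.88), and Cybb, the heavy chain of the phagocyte oxidase (r = 0.85). Within groups, r of Laptm5 with Cd5l was 0.94 and 0.70 in the corticosterone groups on the atglistatin and control diets, and 0.91 and 0.93 in the vehicle groups. It was 0.82 over all groups without replicate 41. That library had 19.7 CPM of Laptm5 and 89.2 CPM of Cd5l, the highest of its group for both.

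Ighm was closest to Igkc, the constant part of the kappa light chain (r = 0.81, rho = 0.78, and r = 0.77 without the 2 libraries farthest from the median of Ighm). Within groups r was 0.90 and 0.89 under corticosterone (atglistatin and control diet) and 0.78 and 0.43 under vehicle. The next genes for Ighm were much less alike (Supt7l, r = 0.56, and Ubr7, r = 0.54). Igkc itself was lower with corticosterone by -1.26 ± 0.35 on the control diet (adjusted p = 0.002719) and -1.21 ± 0.37 on the atglistatin diet (adjusted p = 0.007867). Corticosterone livers that were high in Ighm were thus high in Igkc as well, with control-diet replicate 33 the highest of its group in Ighm at 7.62 CPM.

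**Figure D3:**
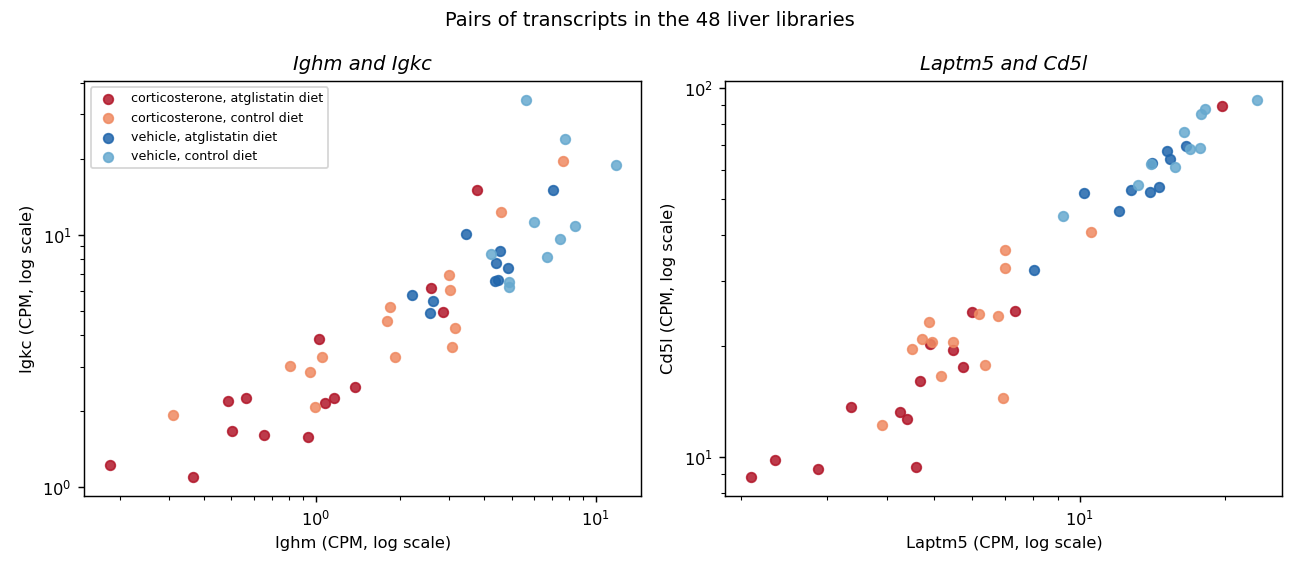
Each point is 1 of the 48 libraries, with CPM of Ighm and Igkc (left) and of Laptm5 and Cd5l (right) on log axes, coloured by group. Ighm runs from 0.184 to 11.8 CPM along one band with Igkc, and the corticosterone atglistatin-diet point among the vehicle points in the right panel is replicate 41, at 19.7 CPM of Laptm5 and 89.2 CPM of Cd5l.

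Among the remaining members, Ptprc was nearest to Clec4a1 (r = 0.72), the adaptor gene Fyb (0.65) and the inhibitory receptor Pirb (0.65). Cd52 was nearest to Fcer1g (0.79), a signalling chain of Fc receptors, and Cd53 to Slc38a1 (0.74), an amino acid carrier, and Sirpa (0.71). Coro1a was nearest to Msn (0.64), which encodes moesin, and Ifi44 (0.63). Ccl5 was nearest to Cxcl9 (0.65), Dock2 (0.65) and Gbp2 (0.63). For Ighd the nearest were Mcc, Adcy6 and Bmf (0.61 to 0.65), but among the 28 corticosterone libraries these values were 0.34, -0.01 and 0.31, where most Ighd counts are 0.

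Other leukocyte genes were counted by lists. Of 36 further genes of leukocytes in general, 32 could be tested, and 29 were called lower and 0 higher with corticosterone on each diet, with median log2 fold changes of -1.35 (control diet) and -1.38 (atglistatin diet); 13 of the 32 pass the filter in the vehicle libraries but not in the corticosterone libraries alone, and 18 pass in the corticosterone libraries. Rac2, a small GTPase of blood cells, had 1.43 ± 0.354 CPM with corticosterone and 6.90 ± 1.52 CPM with vehicle on the control diet (SD, n = 14 and n = 10), a log2 fold change of -2.25 ± 0.20 (edgeR adjusted p = 5.071e-13). Lsp1, a leukocyte actin-binding protein, was lower by -2.80 ± 0.27, and Il2rg, the common chain of several interleukin receptors, by -2.21 ± 0.23. The 3 genes not called on the control diet were Lcp1 (-0.12), Srgn (-0.18) and Gmfg (0.06).

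Genes of single lymphocyte types were few above the filter, and 5 of the 7 B cell genes, 4 of the 8 T cell genes and 1 of the 5 plasma cell genes tested pass it in the vehicle libraries but not in the corticosterone libraries alone, so the counts of genes called lower lean on the filter. Of 22 B cell genes 7 could be tested, and 6 were called lower and 1 higher on each diet (medians -2.18 and -1.79). Cd79b, a chain of the B cell receptor complex, was lower by -3.80 ± 0.41 on the control diet and -3.84 ± 0.40 on the atglistatin diet, with 0.053 ± 0.070 CPM with corticosterone and 0.903 ± 0.354 CPM with vehicle on the control diet. Iglc3, a lambda light chain, was lower by -2.81 ± 0.37, and Bank1, a B cell scaffold, by -2.18 ± 0.21. The exception was Ly6d, named after its values were seen (2.26 ± 0.93 and 3.16 ± 1.00). Of 12 plasma cell genes 5 could be tested. On the control diet 3 were called lower (Igha -2.90, Prdm1 -1.86, Jchain -1.03), and Derl3 (-0.0024) and Txndc5 (0.03) were not called. On the atglistatin diet 2 were called lower, and Jchain gave -0.14.

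Of 26 T cell genes 8 could be tested, and 4 were called lower on each diet, with medians of -0.96 and -0.81. Trac and Trbc2, constant parts of the T cell receptor, were lower by -2.79 ± 0.35 and -2.62 ± 0.33 on the control diet. The 3 genes not called there were Cd4 (-0.03), Zap70 (0.36) and Tcf7 (-0.41). Zap70 and Tcf7 pass the filter in both treatments, while Trac and Trbc2 pass it only in the vehicle libraries. The summed level of the list had a median of 17.3 CPM with corticosterone and 17.0 CPM with vehicle on the control diet. Most of that sum came from other genes of the list than Trac and Trbc2, which averaged 0.904 and 2.19 CPM with vehicle on the control diet. Cd28, a costimulatory receptor, was called higher on the control diet (3.10 ± 0.56, with 1.69 ± 1.2 CPM with corticosterone and 0.195 ± 0.087 CPM with vehicle, n = 14 and n = 10), while on the atglistatin diet its value was 0.77 ± 0.54 and did not pass, and turned to -0.34 without replicate 41. Of 20 genes of NK and cytotoxic cells 3 could be tested, and their log2 fold changes on the control and atglistatin diets were -3.01 and -3.15 (Cxcr6), -2.62 and -2.33 (Klrk1) and -2.22 and -2.14 (Il2rb). Each of the 3 passes the filter in the vehicle libraries but not in the corticosterone libraries alone, so that they could hardly have been called other than lower.

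Macrophage genes moved with the members. Of 19 genes of Kupffer cells and macrophages, 16 were called lower and 1 higher on each diet, with medians of -1.25 and -1.16. Timd4 changed by -1.92 ± 0.17, Clec4f by -1.19 ± 0.12 and Aif1 by -2.55 ± 0.19 on the control diet, and the gene called higher was Slc40a1, the iron exporter (0.28 ± 0.10). The summed level of the list lay between 222 and 380 CPM with corticosterone and between 446 and 778 CPM with vehicle on the control diet. On the atglistatin diet it lay between 238 and 725 CPM with corticosterone, the maximum being above every vehicle library there, and between 397 and 637 CPM with vehicle. Of 5 tested genes of monocytes and dendritic cells 3 were lower on the control diet and 4 on the atglistatin diet. Of 5 neutrophil genes 4 were lower on each diet, and Lcn2, which hepatocytes also make, was higher (4.87 and 4.22). Of these lists, 3 of the 5 monocyte and dendritic cell genes and 2 of the 5 neutrophil genes pass the filter in the vehicle but not in the corticosterone libraries, against 0 of the 19 macrophage genes. As Ptprc, Cd52, Cd53, Coro1a and Laptm5 are also made by myeloid cells, the part of these cells in their levels was not tested.

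Lists of other cell types were set beside these. Of 13 genes of sinusoidal endothelial cells, 7 were lower on the control diet (median -0.24) and 10 on the atglistatin diet (median -0.42). Of 5 erythroid genes, a sign of blood in the tissue, 3 were called higher and 0 lower with corticosterone on the control diet and 0 were called on the atglistatin diet, with summed levels of 914 to 3753 CPM with corticosterone and 963 to 2827 CPM with vehicle on the control diet. Of 10 hepatocyte genes, 2 were higher and 2 lower on the control diet (median 0.04) and 1 was lower on the atglistatin diet (median 0.06). The 10 exocrine pancreas genes were uncalled on the control diet and all lower on the atglistatin diet (median -5.55), where 2 of the 10 vehicle libraries carried Cpa1. These calls are not stable: without the 6 libraries with Cpa1 above 20 CPM, 1 was called lower on the control diet and 0 on the atglistatin diet, and DESeq2, run on all 11 counted genes of the list, called 11 and 0. Without the same 6 libraries, 8 of 8 members were still called lower with corticosterone on each diet.

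**Figure D4:**
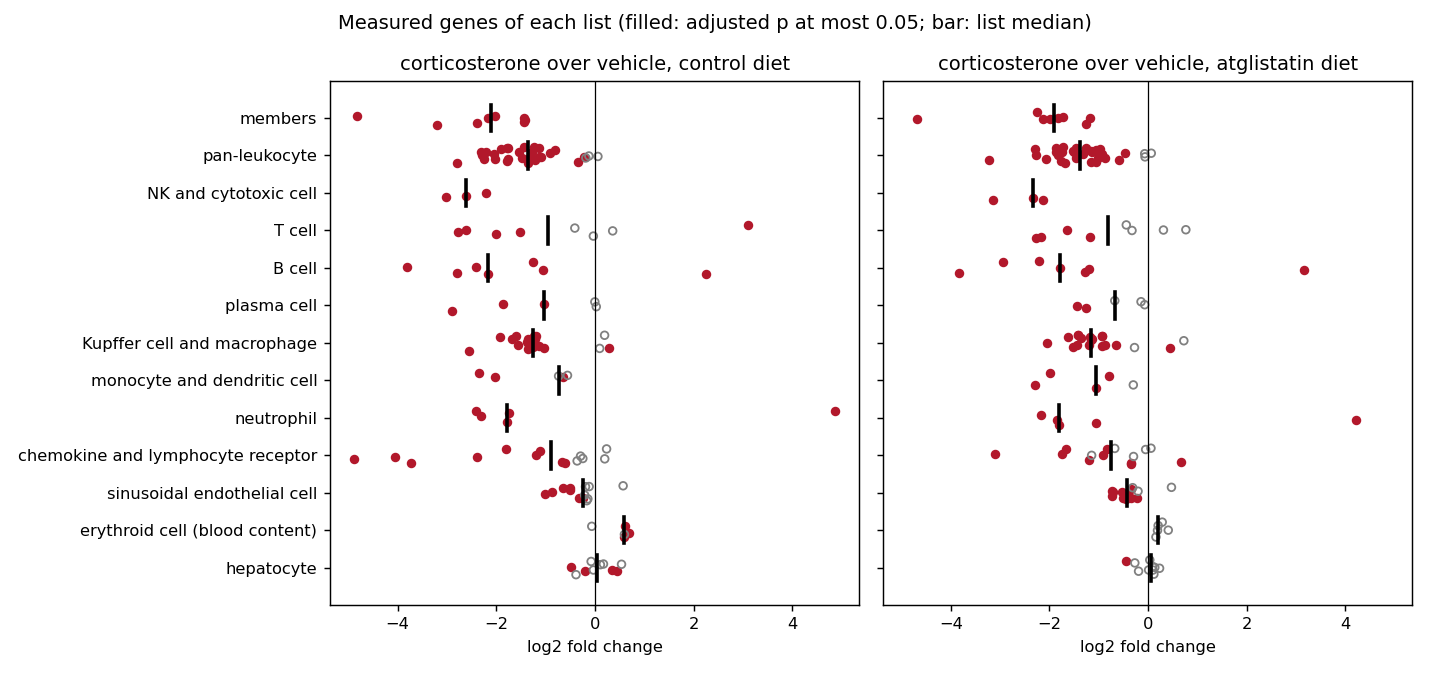
Log2 fold change (x axis) of corticosterone over vehicle for every tested gene of each list (rows) except exocrine pancreas, which is not drawn. The control diet is on the left and the atglistatin diet on the right. Filled points have an adjusted p of at most 0.05 and the bar is the list's median. The members (medians -2.11 and -1.91), the leukocyte genes and the macrophage genes lie left of 0, with a few single exceptions to the right, while the hepatocyte medians are 0.04 and 0.06.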

How the data were processed

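RNA came from powdered frozen liver and was read from the 3′ ends of transcripts with QuantSeq, per the labels' protocols. The authors deposited counts per gene and a table of normalized signal values, which match the counts after division by a single factor for each library (relative deviation at most 5.3e-15) and were used only for symbols. The submitters' processing notes name the build GRCm38 and, as tools, R 3.6 with DESeq2 1.24.0. Aligner, counter, annotation release and strand setting were not given in the sources used here. Symbols came from the normalized table for 12491 genes and from GENCODE M21 for 1728, and 32 had none. All columns were mapped to labelled samples, with 0 left over.

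Counts were analysed in R 4.3.3 with edgeR 4.0.16: filterByExpr (minimum count 10, minimum total 15), TMM factors, a mean per group over all 48 libraries, quasi-likelihood tests and Benjamini-Hochberg adjustment over all genes. CPM are TMM-scaled counts. SE is the log2 fold change divided by the square root of the F statistic, and 95% intervals are normal intervals around the estimate. The diabetic labels were compared in the 14 corticosterone control-diet libraries alone. Libraries were taken as separate mice, as each is labelled with a glucose and an insulin measurement. No batch, cage or day is labelled.

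The genes named are the 8 members, up to 3 genes of each of 13 lists with the smallest p in corticosterone against vehicle on the control diet, the 3 genes nearest in pattern to each member, and exceptions marked as such. A gene that this rule selects is not reported here. Members and lists were chosen with earlier results of these data known. Alternatives were RLE factors, DESeq2 1.42.0, no filter, the compared groups alone, and fits without diabetic mice, without libraries rich in Cpa1, without replicate 41, without each library in turn, and with the title number as a block. The edgeR step was tested on simulated counts. Intervals on counts cover counting error only.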

Additional observations from a re-analysis of the deposited data

Results flagged for a closer look

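Within the 9 corticosterone control-diet livers labelled diabetic, 2 values lay far from the rest of their group. Replicate 34 had 10.6 CPM of Laptm5, where the next library had 6.94 CPM. Replicate 37 had 0.148 CPM of Ighd, from 2 counts, where the next had 0.065 CPM. Each gap exceeded Dixon's 95% critical value for 9 samples (0.544 and 0.557 of the range against 0.493). For Ighd, 7 of these 9 libraries had no count, so its gap rests on a few reads and the rule can decide little there. The 32 groups of values examined include these 2, and chance marks about 1 in 20 such groups. The whole corticosterone groups of 14 libraries, and so replicate 41, were not examined this way.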

How the results depend on the processing

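All 8 members were called lower with corticosterone on both diets with RLE factors, DESeq2, no filter, without diabetic mice, without the libraries rich in Cpa1 and without each of the 48 libraries in turn. With the compared groups alone 7 were, since Ighd fell under the filter. The depth limits Ighd and Ccl5, which rest on few counts in corticosterone livers.

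The count of members called for atglistatin under corticosterone was 0 with the groups fitted alone and without diabetic mice, and 0 to 2 when single libraries were left out. For atglistatin under vehicle it was 1 with the groups alone. Without diabetic mice, which left 5 corticosterone control-diet livers, genes called numbered 3614 (corticosterone, control diet), 609 (atglistatin under corticosterone) and 76 (interaction), beside 5606, 1479 and 181. Without libraries rich in Cpa1 they numbered 207 for atglistatin under vehicle, beside 397, and 64 for the interaction.

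Values near 0 that did not pass changed sign. For atglistatin under corticosterone these were Ptprc (-0.011) and Coro1a (0.082) without diabetic mice, Cd53 (0.0019) and Ighd (-0.055) without Cpa1 libraries, and Ighd (-0.024) with DESeq2. For the interaction without replicate 41 they were Cd53 (-0.046) and Laptm5 (-0.14). For the diabetic label Laptm5 gave 0.036 without Cpa1 libraries and 1.6e-05 with DESeq2. Leaving out single libraries gave ranges, for atglistatin under corticosterone, of -0.31 to 0.029 (Cd53), -0.33 to 0.055 (Coro1a) and -0.34 to 0.47 (Ighd). For Ighd the range was -0.20 to 0.029 for atglistatin under vehicle and -0.23 to 0.58 for the interaction, where Cd53 ran from -0.046 to 0.31 and Laptm5 from -0.14 to 0.24. For the diabetic label it was -0.13 to 0.054 (Laptm5) and -0.60 to 0.53 (Ighm). Cd28 on the atglistatin diet turned to -0.34 without replicate 41.

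Counts of lists called lower on the control diet ranged over the alternatives from 2 to 9 (T cell), 2 to 13 (B cell), 2 to 5 (plasma cell), 1 to 8 (NK cell) and 2 to 8 (monocyte and dendritic cell), and from 24 to 32 (leukocytes in general). For exocrine pancreas they ranged from 0 to 11 on each diet, beside 0 (control diet) and 10 (atglistatin diet), with 1 for the atglistatin diet when its groups were fitted alone. Without diabetic mice Jchain (adjusted p = 0.1292) and Plac8 (0.1608) no longer passed there.

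Libraries with the same title number in different groups were not treated as pairs, as their deviations correlated at -0.11 to 0.05. Such correlations cannot exclude a shared cage or day. With the number as a replicate block, only libraries that share a number were fitted. For corticosterone on the atglistatin diet these were replicates 13 and 14 of each group. There 56 genes and 1 member were called, beside 300 genes and 5 members in the same libraries without the block. The fit without the block was chosen after seeing the data. For atglistatin under vehicle the block gave 1 gene, beside 0, with Coro1a at -0.29 in both and Ighd at 0.37, beside 0.36. The causes of these shifts were not tested.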
